A study of Mus musculus with 14 samples.

Results

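The genes described here are the mouse cadherins, the desmosomal cadherins and the Celsr genes. They were taken by symbol: the numbered Cdh genes, Dsc1 to Dsc3, the Dsg genes and Celsr1 to Celsr3. Of 56941 gene IDs in the tables, 35 had such a symbol. The rule read names and no measured value, but the family itself was chosen by reference to known E18.5 fold changes of these libraries, in which Dsc3 already stood out. Values of Dsc3 are therefore given as a description, and counts over the family are not evidence about it.

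Poly(A) RNA of mouse forebrain was sequenced in 14 bulk libraries. The groups were dcKO and ff cerebral cortex at E18.5, with 4 libraries each, and dcKO and ff telencephalon at E12.5, with 3 libraries each. The dcKO embryos carried floxed Sbno1 and floxed Trp53 together with Emx1-Cre, a driver active in the progenitors of the dorsal telencephalon and their descendants. Vessels, meninges, interneurons of ventral origin and other cells outside that lineage therefore keep both genes in the dcKO tissue. The ff libraries, called dfl in the count tables, were read as floxed controls. The labels do not say whether they carried Cre, and none of the 4 groups is labelled as having Cre without the floxed alleles. The floxed alleles of Sbno1 and Trp53 were combined in the same embryos, so effects of either gene cannot be told apart. Nothing in the labels says whether an embryo gave 1 library or several were pooled. The p-values therefore set group differences against the spread between these libraries, which may not be independent embryos.

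Library depth was 48.6 to 82.0 M (M, 1000000 counts) at E18.5 and 42.0 to 67.4 M at E12.5, apart from 2 shallow libraries, dcKO replicate 1 at E18.5 with 5.98 M and ff replicate 1 at E12.5 with 4.92 M. Sex was inferred from RNA. A library was read as male where the summed counts of the Y-linked Ddx3y, Eif2s3y, Kdm5d and Uty exceeded those of Xist. By this reading every dcKO library was male, whereas the ff groups included 2 female libraries of 4 at E18.5 and 1 of 3 at E12.5. Sbno1 averaged 70.1 ± 5.78 counts per 1000000 (CPM) in dcKO and 105 ± 9.26 CPM in ff telencephalon (SD, n = 3 each), with an adjusted p of 0.051 by edgeR. At E18.5 it averaged 72.3 ± 4.16 CPM in the libraries labelled dcKO and 73.6 ± 1.31 CPM in ff (SD, n = 4 each), so at that stage the gene-level count does not separate the labels. Trp53 averaged 106 ± 2.29 CPM in dcKO and 123 ± 15.5 CPM in ff at E12.5 (adjusted p of 0.22), and 64.9 ± 6.31 CPM in dcKO and 74.9 ± 2.52 CPM in ff at E18.5 (adjusted p of 0.032). Emx1 was lower in dcKO at both stages, at 31.9 ± 1.46 against 62.2 ± 4.35 CPM at E12.5 and 15.1 ± 0.889 against 26.4 ± 1.26 CPM at E18.5 (SD), with adjusted p of 0.0083 and 8.3e-06. The library names in the sample descriptions pointed to another group than the title in 11 of 14 samples, and groups were taken from the table columns, whose sizes match the titles. Groups at E18.5 are called dcKO and ff below by these column names. Tcf7l2, a gene of the thalamic region, was at 126 to 263 TPM (transcripts per 1000000) at E12.5 and 4.05 to 11.2 TPM at E18.5. Whether the E12.5 dissection took in tissue beyond the telencephalon was not tested.

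Cadherins are calcium-dependent adhesion proteins. Type I classical cadherins, such as Cdh1 (E-cadherin) and Cdh2 (N-cadherin), hold cells together at adherens junctions and bind catenins, which link them to actin. Type II classical cadherins, such as Cdh6, Cdh8 and Cdh11, share that design and are known for patchwork expression across regions, layers and nuclei of the developing brain. Desmocollins (Dsc) and desmogleins (Dsg) are the adhesion proteins of desmosomes in epithelia and heart. Celsr proteins are large adhesion receptors, counterparts of fly Flamingo, that act in planar cell polarity, in axon guidance and in the beating cilia of the ependyma.

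Levels between genes were compared in TPM, which corrects for length. Cdh2, the main cadherin of neuroepithelial junctions, was the highest member in every group, at 201 ± 8.85 TPM in dcKO and 200 ± 21.2 TPM in ff at E18.5 (SD, n = 4 each). At E12.5 it had 191, 168 and 163 TPM in dcKO, against 210, 194 and 184 TPM in ff. Its lowest library lay above the highest library of every other member in each group. Next at E18.5 came Cdh13 (T-cadherin, anchored by a lipid and lacking the catenin-binding tail), with a mean of 74.6 TPM in dcKO and 88.4 TPM in ff. Its range was separate from that of the gene below it, Cdh8, in both groups. Cdh8, a type II cadherin of forebrain neurons, averaged 52.1 TPM in dcKO and 53.9 TPM in ff, and Cdh4 (R-cadherin) 51.2 TPM in dcKO and 45.3 TPM in ff. From Cdh8 down to Celsr3 neighbours in the order overlapped in their ranges. In ff telencephalon at E12.5 the order below Cdh2 was Celsr2, Celsr1, Cdh11, Cdh4 and Celsr3, with means of 65.9, 46.8, 45.9, 30.3 and 26.2 TPM, and Celsr1 and its neighbours downwards overlapped. In dcKO telencephalon Cdh11 with 52.2 TPM and Celsr2 with 48.0 TPM overlapped. Celsr1, with a mean of 27.8 TPM, came after Cdh4 with 29.1 TPM, and these ranges overlapped too. Summed over the family, libraries held 606 to 683 TPM in dcKO and 569 to 693 TPM in ff at E18.5, and 443 to 523 TPM in dcKO and 492 to 595 TPM in ff at E12.5. The sums of the groups overlapped at both stages.

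**Figure D1:**
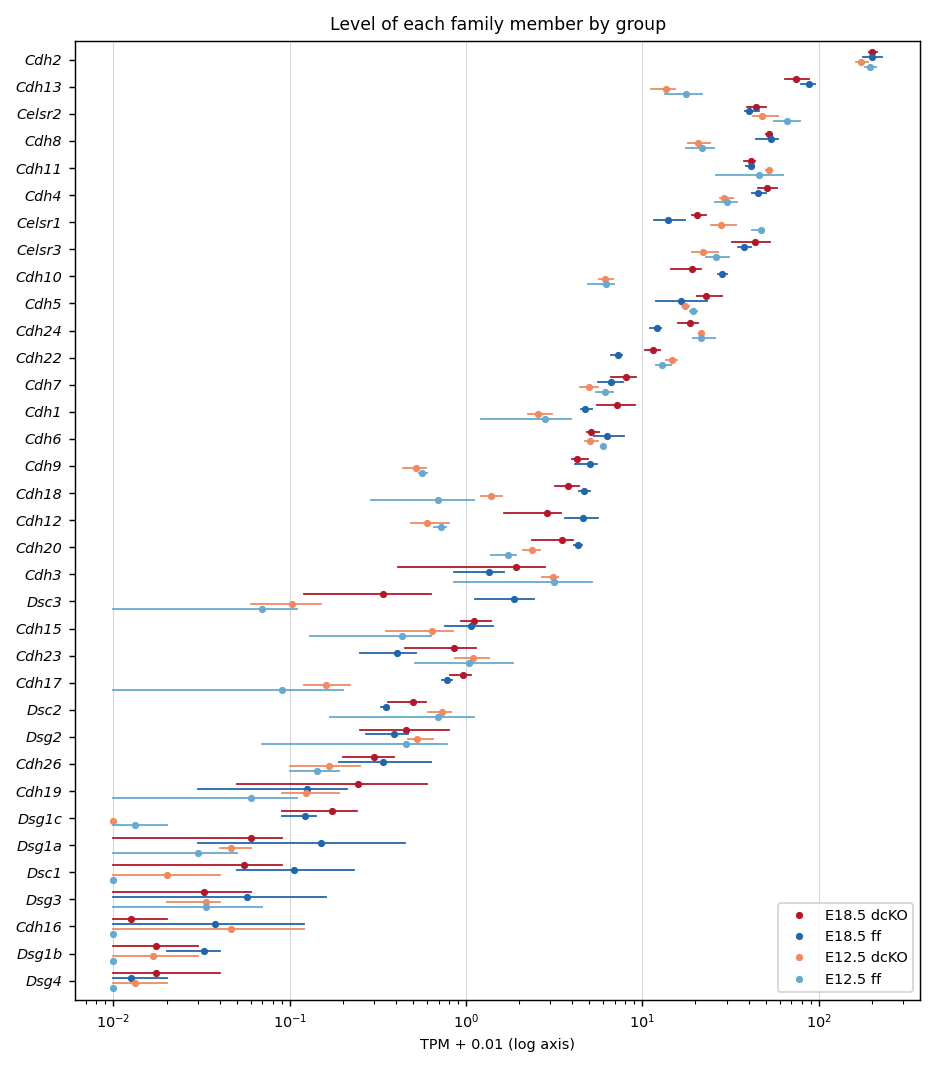
Mean TPM (points) and range over libraries (lines) of each member by group, on a log axis after adding 0.01; n = 4 libraries per group at E18.5 and 3 at E12.5. Cdh2 is highest in all 4 groups, and desmosomal genes are at the low end.

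At the other end, 9 members did not pass the filter on low counts at E12.5, where none exceeded 0.18 TPM in any library, and 6 did not pass at E18.5, where the highest value was 0.44 TPM. The desmogleins of stratified epithelium, Dsg1a, Dsg1b, Dsg3 and Dsg4, were in both sets, as were Dsc1 and Cdh16, and Cdh19, Dsc3 and Dsg1c were not tested at E12.5. Dsg1a and Dsg3 were nonetheless high in 1 library: ff replicate 2 at E18.5 held 104 counts of Dsg1a and 40 of Dsg3, against at most 12.1 and 6 counts in any other library of that stage. The same library held 51.1 TPM of Krt5 and 36.9 TPM of Krt14, keratins of the basal epidermis, against at most 0.06 and 0.63 TPM in the others. The 8 epithelial and skin markers summed to 13.3 to 24.0 TPM in dcKO and 17.5 to 129 TPM in ff at E18.5. Dsg1a, Dsg1b and Dsg1c are near-identical copies, and the split of reads between them is uncertain.

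At E12.5, 26 members were tested for dcKO against ff, and 1 passed an adjusted p of 0.05 in edgeR's quasi-likelihood test, Celsr1, which was lower in dcKO. Over all 17853 genes tested, 0.19% passed, 0.0392% higher and 0.151% lower. Celsr1 had 34.1, 24.6 and 24.7 TPM in dcKO telencephalon, against 49.2, 49.2 and 42.0 TPM in ff. All dcKO libraries lay below all ff libraries. On counts the log2 fold change was -0.82 ± 0.11 (SE), with an adjusted p of 0.047. The call is close to the threshold. It was lost in 8 of 18 alternative fits, among them those without ff replicate 2, ff replicate 3, dcKO replicate 2 or dcKO replicate 3, with adjusted p up to 0.36, while the log2 fold change stayed between -0.95 and -0.64. Beside it, deep-layer neuron markers summed to 210 to 247 TPM in dcKO and 277 to 330 TPM in ff at E12.5, with 2 of 8 lower, and intermediate progenitor markers to 286 to 288 TPM in dcKO and 350 to 412 TPM in ff, with 1 of 5 lower. Telencephalon markers summed to 228 to 245 TPM in dcKO and 318 to 399 TPM in ff, with 1 of 3 lower. Upper-layer markers summed to 522 to 579 TPM in dcKO and 587 to 632 TPM in ff, and none of 8 passed. Radial glia sums overlapped, at 3010 to 3070 TPM in dcKO and 2840 to 3100 TPM in ff, and none of 10 passed. The part of cell composition in the Celsr1 value was not tested. In the authors' deposited table Celsr1 has a log2 fold change of -0.78 with an adjusted p of 2.5e-09.

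The related Celsr2 had 58.7, 42.4 and 42.8 TPM in dcKO and 63.4, 78.4 and 55.9 TPM in ff at E12.5. In TPM the highest dcKO library lay above the lowest ff library, whereas in CPM the groups did not overlap, at 161 to 215 in dcKO and 228 to 276 in ff. Its log2 fold change of -0.46 ± 0.12 had an adjusted p of 0.11 by edgeR and did not pass, although it passed in the DESeq2 Wald test with 0.0061 and in the authors' deposited table with 0.0075. Celsr3, which in mouse is needed for the major forebrain axon tracts, was at 19.1 to 26.8 TPM in dcKO and 22.8 to 31.2 TPM in ff, with a log2 fold change of -0.28 ± 0.14 that did not pass.

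The other 23 tested members had log2 fold changes between -0.37, for Cdh12, and 0.87, for Cdh18, and their adjusted p ran from 0.17 upwards. The median over members was -0.04, against 0.01 over all genes tested. In 7 members the groups did not overlap in CPM, which is 26.9% of those tested, against 26.8% of all genes. Members of epithelia and mesenchyme were low in 1 library of this stage: in ff replicate 1, the shallow library, Cdh1 was at 1.20 TPM, Cdh3 (P-cadherin) at 0.84, Cdh11 at 26.0, Dsc2 at 0.16 and Dsg2 at 0.06 TPM. The remaining 5 libraries held 2.24 to 3.95 TPM of Cdh1, 2.70 to 5.15 of Cdh3, 48.8 to 63.0 of Cdh11, 0.60 to 1.10 of Dsc2 and 0.46 to 0.77 TPM of Dsg2. Krt5 moved with them, at 0 TPM in that library against 22.1 to 50.6 TPM in the other 5, and Krt14 was at 0 against 11.5 to 25.4 TPM. Meningeal fibroblast markers summed to 184 TPM in it and 516 to 803 TPM in the other 5. Their part in these members' levels was not tested.

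At E18.5, 14 of 29 tested members passed, 5 higher and 9 lower in dcKO. Over all 17974 genes tested, 32.2% passed, 15.6% higher and 16.6% lower, so calls are common at this stage; among the members tested it was 48.3%. The median log2 fold change was -0.05 over members and 0.03 over all genes. The groups did not overlap in 11 members, or 37.9% of those tested, against 33.3% of all genes. All dcKO but not all ff libraries were male, and 9 of the 14 passed once sex was added to the model; Cdh1, Cdh6, Cdh9, Cdh12 and Cdh20 then did not. In TPM with limma 6 of the 14 were past the threshold: Cdh1, Cdh10, Cdh22, Cdh24, Celsr1 and Dsc3. Dsc3 is included in these counts as a description, since its value was known when the family was chosen. In bulk tissue, fewer cells of a type and less RNA per cell cannot be told apart.

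**Figure D2:**
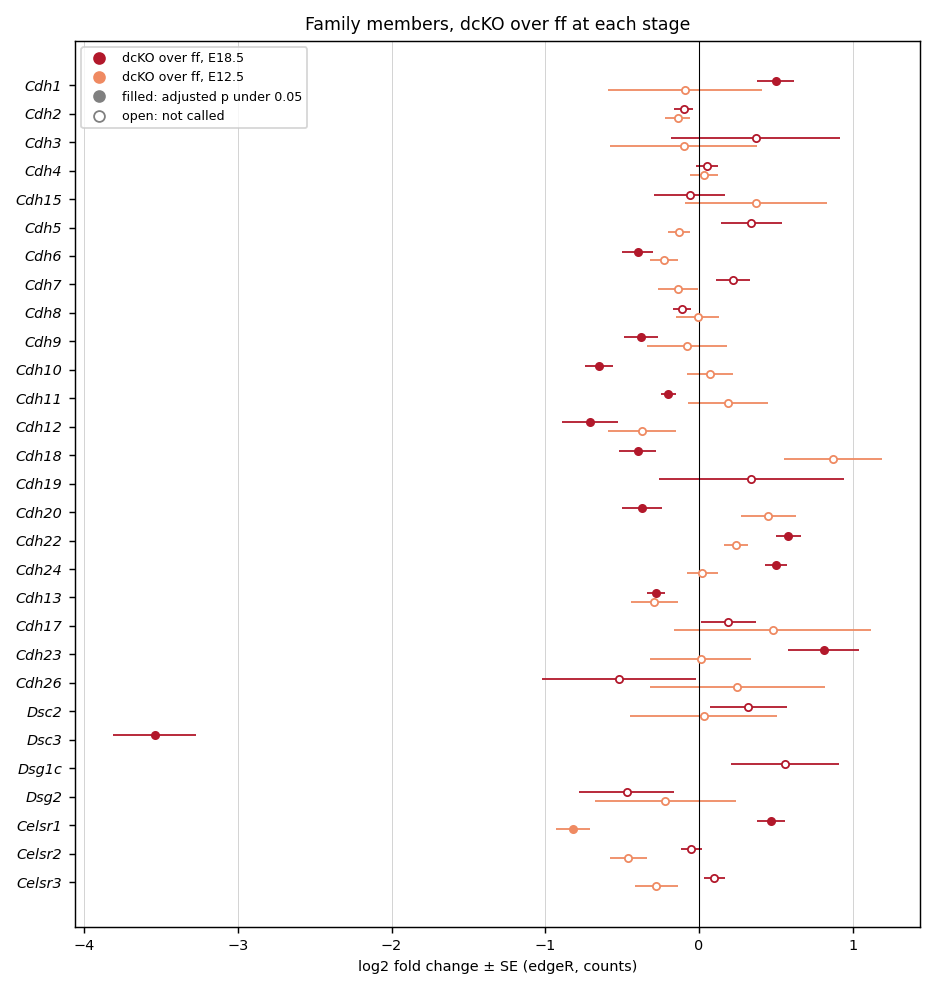
Log2 fold change of dcKO over ff ± SE from edgeR on counts for each tested member, at E18.5 (red) and E12.5 (orange); filled points passed an adjusted p of 0.05. At E12.5 Celsr1 is filled alone, and at E18.5 Dsc3 lies far below all others at -3.54.

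Among the 13 type II cadherins, all tested at E18.5, 7 were lower and 2 higher in dcKO, where 16.6% of all genes tested were lower and 15.6% higher. Cdh10, which is known for its expression in frontal cortex, had the lowest p of the lowered ones. It stood at 22.6, 31.7, 33.1 and 31.1 CPM in dcKO cortex, against 47.9, 49.9, 47.8 and 44.2 CPM in ff, and every dcKO library was below every ff library. Its log2 fold change was -0.65 ± 0.09 with an adjusted p of 0.00023, and it passed in each of the 20 alternatives run. Cdh12 (Br-cadherin) had 4.62, 9.10, 9.77 and 9.73 CPM in dcKO, against 15.1, 16.5, 12 and 13.2 CPM in ff, again without overlap. Its log2 fold change was -0.71 ± 0.18, with an adjusted p of 0.011. The lowest of these values is from the shallow dcKO library.

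Smaller decreases were found for further type II members. Cdh6 was at 20.6, 21.0, 23.1 and 19.5 CPM in dcKO, against 23.9, 34.1, 26.7 and 26.8 CPM in ff, a log2 fold change of -0.40 ± 0.10 with an adjusted p of 0.010. Cdh18 was at 3.99, 4.54, 5.61 and 4.76 CPM in dcKO, against 6.84, 5.91, 6.43 and 6.25 CPM in ff, with -0.40 ± 0.12 and an adjusted p of 0.022. In neither gene did the groups overlap in CPM. In TPM both did: the highest dcKO library of Cdh6 was at 5.65 and the lowest ff library at 5.31. For Cdh18 these were 4.36 and 4.34 TPM. Neither gene passed with limma on log2(TPM + 1). Cdh9, which in mouse acts at synapses between dentate gyrus and CA3, was at 6.70, 6.39, 7.81 and 6.05 CPM in dcKO, against 9.71, 8.94, 7.71 and 8.61 CPM in ff. Here 1 dcKO library lay above the lowest ff library, and the log2 fold change was -0.38 ± 0.11 with an adjusted p of 0.024. Cdh20 was at 4.62, 7.52, 7.61 and 7.82 CPM in dcKO, against 9.74, 9.17, 9.22 and 8.80 CPM in ff, without overlap, with -0.37 ± 0.13 and an adjusted p of 0.043. This call was the least stable, lost in 11 of 20 alternatives, 6 of which left out 1 library each: ff replicate 1, 2 or 3, or dcKO replicate 2, 3 or 4.

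Calls of Cdh9 and Cdh18 were lost without ff replicate 1, dcKO replicate 2 or dcKO replicate 4, with adjusted p up to 0.23 for Cdh9 and 0.13 for Cdh18 over all alternatives. Cdh11, a cadherin of mesenchyme and of cortical neurons, depended on the scale. It was at 88.5, 97.5, 94.7 and 93.7 CPM in dcKO and 110, 109, 103 and 111 CPM in ff, with a log2 fold change of -0.20 ± 0.05 and an adjusted p of 0.0064. In TPM its means were 41.1 ± 3.04 in dcKO and 41.0 ± 1.66 in ff (SD, n = 4 each), so the difference is not seen on that scale. Meningeal fibroblast markers, another source of Cdh11, summed to 265 to 387 TPM in dcKO and 166 to 324 TPM in ff, with 1 of 7 higher, and their part was not tested.

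The type II members that were higher in dcKO were Cdh22 and Cdh24. Cdh22 (PB-cadherin, described in pituitary and brain) had 11.7, 10.4, 11.4 and 12.6 TPM in dcKO, against 7.29, 7.63, 6.61 and 7.48 TPM in ff. On counts its log2 fold change was 0.58 ± 0.08, with an adjusted p of 0.00013. Cdh24 had 32.1, 28.2, 32.0 and 34.6 CPM in dcKO, against 22.9, 23.1, 21.4 and 22.5 CPM in ff, with 0.50 ± 0.07 and an adjusted p of 0.00027. In both genes all dcKO libraries lay above all ff libraries. Cdh5, Cdh7, Cdh8 and Cdh19 did not pass, with log2 fold changes of 0.34 ± 0.20, 0.22 ± 0.11, -0.11 ± 0.06 and 0.34 ± 0.60; Cdh5 (VE-cadherin) is the junction protein of endothelium.

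**Figure D3:**
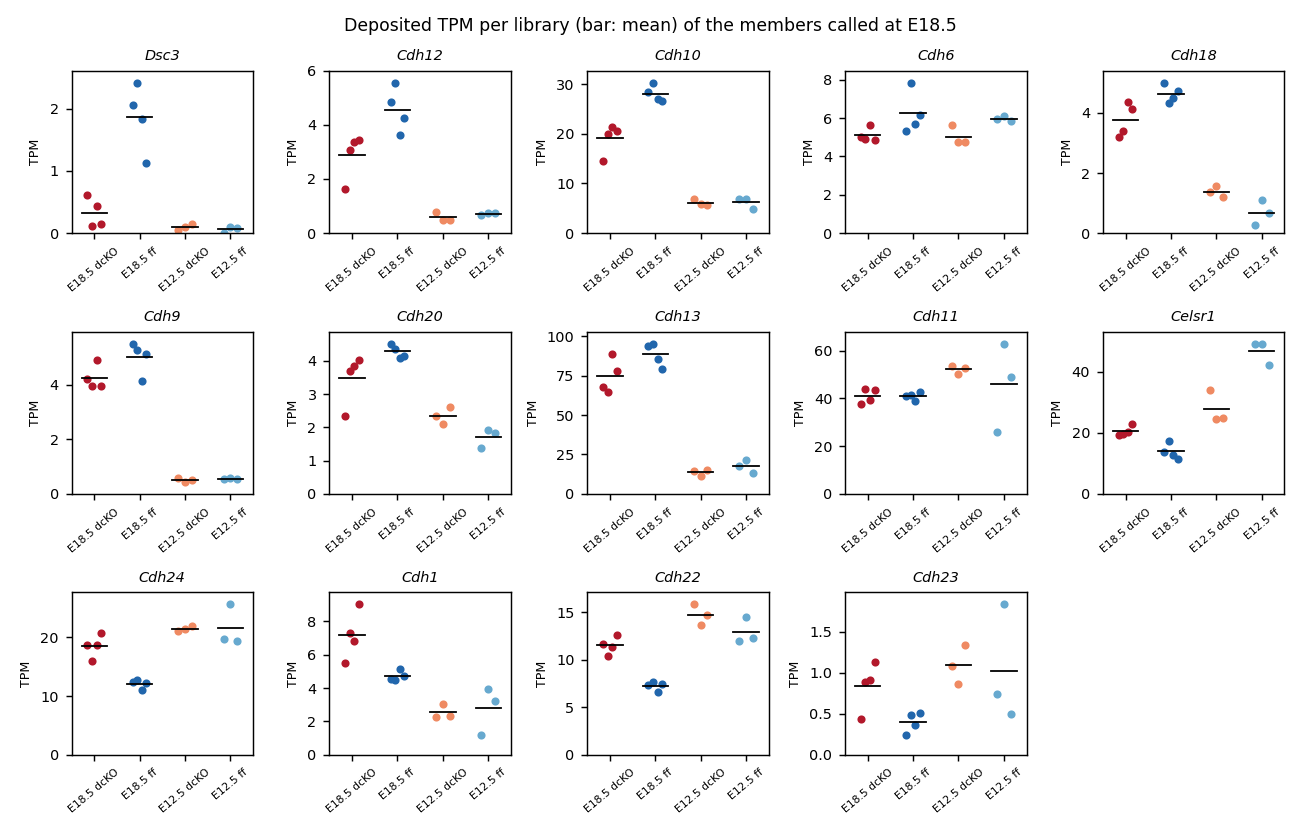
Deposited TPM of each library (points) and group mean (bars) for the 14 members that passed at E18.5, ordered from the most lowered to the most raised; each panel has its own linear axis from 0. Cdh10, Cdh22 and Cdh24 are separated between dcKO and ff at E18.5, while Cdh11 is not separated in TPM.

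The promoters of the type II members that moved furthest in each direction are shown to set them side by side. The sequences are the 250 bases before the RefSeq start in GRCm38.p6, read 5′ to 3′ on the strand of the gene, with CG dinucleotides in capitals.
Cdh10, chr15:18820079-18820328, plus strand: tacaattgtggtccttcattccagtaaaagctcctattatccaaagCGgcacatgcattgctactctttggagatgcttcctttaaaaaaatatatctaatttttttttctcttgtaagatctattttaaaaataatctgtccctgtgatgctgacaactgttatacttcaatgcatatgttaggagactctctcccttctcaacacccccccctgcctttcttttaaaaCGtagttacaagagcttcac
Cdh12, chr15:21111202-21111451, plus strand: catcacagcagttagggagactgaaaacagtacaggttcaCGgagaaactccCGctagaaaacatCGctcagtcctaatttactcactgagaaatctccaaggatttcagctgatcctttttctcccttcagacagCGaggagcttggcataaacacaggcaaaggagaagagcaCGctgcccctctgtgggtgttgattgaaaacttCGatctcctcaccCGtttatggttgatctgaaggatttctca
Cdh22, chr2:165234738-165234987, minus strand: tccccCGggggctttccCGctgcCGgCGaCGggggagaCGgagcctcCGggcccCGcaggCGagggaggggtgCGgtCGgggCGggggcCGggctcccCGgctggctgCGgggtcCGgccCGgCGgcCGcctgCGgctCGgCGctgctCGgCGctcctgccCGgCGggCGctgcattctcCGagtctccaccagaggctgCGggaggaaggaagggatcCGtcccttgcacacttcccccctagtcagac
Cdh24, chr14:54641365-54641614, minus strand: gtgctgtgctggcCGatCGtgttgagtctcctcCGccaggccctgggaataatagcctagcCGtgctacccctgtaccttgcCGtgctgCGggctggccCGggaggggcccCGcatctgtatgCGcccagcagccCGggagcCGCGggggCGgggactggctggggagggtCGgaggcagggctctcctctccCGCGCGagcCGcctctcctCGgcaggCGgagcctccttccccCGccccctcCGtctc
Those of the raised genes are rich in CG, with 30 in the Cdh22 window and 22 in the Cdh24 window and a GC content of 77.6% and 72.8%. The lowered Cdh10 has 2 CG and 36.8% GC, and Cdh12 has 7 CG and 46.8% GC. Over all 32851 promoter windows of the same length in the table, the median was 6 CG with quartiles of 2 and 16, the median GC content was 52.4%, and 92.1% held at least 1 CG. Of all windows, 94.1% hold fewer CG than that of Cdh22, and 85.2% fewer than that of Cdh24. These 4 genes were picked after their values were seen, and the table had windows for 15 of the 35 members, so this is a description of 4 sequences. Among the other members that passed at E18.5 and had a window, the raised Cdh23 had 5 CG. The lowered Cdh6, Cdh9, Cdh18 and Cdh20 had 6, 6, 8 and 10 CG. Windows of members that did not pass at that stage ran from 0 CG, in Cdh26, to 32 CG, in Celsr2. The E-box CAGGTG, the letters bound by Snail and Zeb repressors, was searched on both strands. It is in 3 of the 17 windows of the 15 members, belonging to Cdh7 and Celsr2, against 17.2% of all promoters. TGGGAA, the core letters bound by RBPJ, was found in 5 of the 17 windows, belonging to Cdh7, Cdh24 and Cdh26, against 21.6% of all promoters. No p53 half-site was found in the members' windows, against 7.13% of all promoters.

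The lowered genes Cdh6, Cdh9, Cdh10 and Cdh12 are next to each other on chromosome 15, with no other protein-coding gene between them in RefSeq GRCm38.p6, and Cdh18 is on the same chromosome. All 5 were lower at E18.5, where 16.6% of all genes tested were lower. None passed at E12.5, where 0.19% of all genes passed. Celsr1, also on chromosome 15, was higher at E18.5. The grouping on chromosome 15 was noticed after the values were seen and was not tested. Members are neighbours elsewhere too. Of Cdh8, Cdh11 and Cdh5 on chromosome 8, Cdh11 alone passed at E18.5. Of Cdh3 and Cdh1 on that chromosome, Cdh1 passed and was higher. Neither Cdh7 nor Cdh19 on chromosome 1 passed. Among the 10 adjacent members on chromosome 18, 1 of 5 tested passed, Dsc3, which was lower. Exons of Cdh8 and Cdh9 overlap annotated antisense genes, and those of Cdh12 a gene on the same strand, where reads may be shared.

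Of the 5 type I members, Cdh1 passed at E18.5. This epithelial cadherin was at 12.1, 16.6, 14.9 and 19.3 CPM in dcKO, against 10.9, 10.4, 12.9 and 11.2 CPM in ff. The lowest dcKO library lay within the ff range, and the log2 fold change was 0.50 ± 0.12 with an adjusted p of 0.0075. Cdh2 was at 430, 397, 393 and 392 CPM in dcKO and 424, 481, 399 and 421 CPM in ff, a log2 fold change of -0.10 ± 0.06 that did not pass. Cdh4 had 0.05 ± 0.07, and Cdh15 (M-cadherin of muscle) -0.06 ± 0.23. Cdh3 had 0.37 ± 0.55, with a wide spread: dcKO replicate 3 held 0.40 TPM against 2.21 to 2.81 TPM in the other dcKO libraries, and without it Cdh3 passed. That library was also low in choroid plexus RNA, with 1.82 TPM of Ttr against 1401 to 3203 TPM in the other 7 libraries of the stage. The 8 choroid plexus markers summed to 10.7 to 3350 TPM in dcKO and 1470 to 2560 TPM in ff, and none passed. The part of choroid plexus RNA in the Cdh3 values was not tested.

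Among the cadherins outside the classical types, Cdh13 was lower and Cdh23 higher. Cdh13 was at 121, 118, 135 and 129 CPM in dcKO, against 159, 153, 159 and 141 CPM in ff, with no overlap in CPM. Its log2 fold change was -0.28 ± 0.06, with an adjusted p of 0.0033 by edgeR. In TPM the groups of Cdh13 overlapped, at 64.7 to 88.5 in dcKO and 79.2 to 95.3 in ff. The call was lost with limma on log2(TPM + 1). Cdh23, known from the tip links of inner ear hair cells, was at 1.44, 2.18, 1.72 and 2.26 CPM in dcKO, against 0.794, 1.16, 1.02 and 1.46 CPM in ff. The groups overlapped at their edge, and the log2 fold change was 0.81 ± 0.23 with an adjusted p of 0.018. That call was lost without ff replicate 1, ff replicate 3, dcKO replicate 2 or dcKO replicate 4, with adjusted p up to 0.066 over all alternatives. Cdh17, a cadherin of liver and intestine, had 0.19 ± 0.18 and Cdh26 -0.52 ± 0.50, and neither passed, while Cdh16, a kidney cadherin, was not tested.

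Dsc3, a desmocollin of stratified epithelium, differed most in size. It had 1, 15, 21 and 19 counts in dcKO cortex at E18.5, against 227, 384, 240 and 131 counts in ff. In TMM-scaled counts this is 0.159, 0.298, 0.381 and 0.371 CPM in dcKO, against 3.92, 4.89, 4.46 and 2.46 CPM in ff. The groups are far apart in every library, with a log2 fold change of -3.54 ± 0.27. At E12.5 it had 9, 14 and 18 counts in dcKO and 0, 13 and 6 counts in ff. The ff replicate with keratin RNA had the highest count, 384, and the 3 ff libraries at or below 0.63 TPM of Krt5 and Krt14 held 131 to 240 counts. The part of skin RNA in the Dsc3 values was not tested. The 3 other desmosomal members tested, Dsc2, Dsg1c and Dsg2, had log2 fold changes of 0.32 ± 0.25, 0.56 ± 0.35 and -0.47 ± 0.31 and did not pass.

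Celsr1 was higher in dcKO at E18.5. It had 67.9, 73.2, 73.3 and 71.5 CPM in dcKO, against 45.0, 63.9, 49.6 and 48.4 CPM in ff, with no overlap. Its log2 fold change was 0.47 ± 0.09, with an adjusted p of 0.0032. Celsr2 and Celsr3 did not pass, with -0.05 ± 0.07 and 0.10 ± 0.07.

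**Figure D4:**
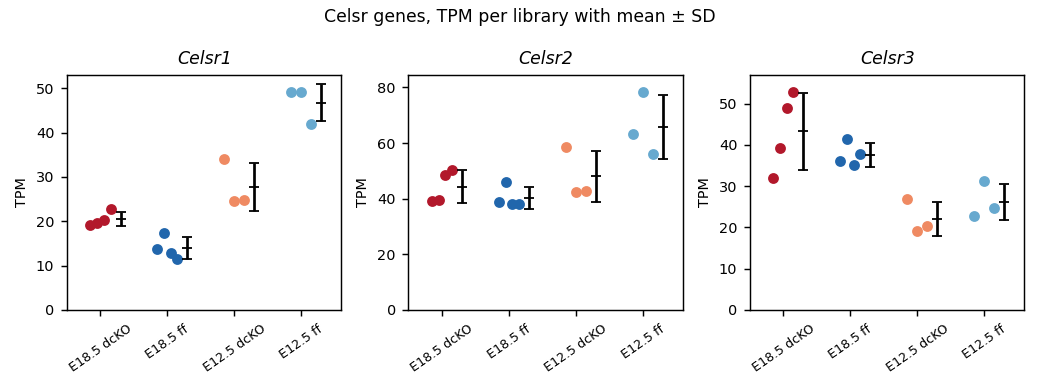
TPM of Celsr1, Celsr2 and Celsr3 in each library (points) with group mean ± SD (black), 4 libraries per group at E18.5 and 3 at E12.5. Celsr1 is above ff in dcKO cortex at E18.5 and below ff in dcKO telencephalon at E12.5.

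Whether the genotype difference changed with stage was tested as an interaction in 1 fit of all 14 libraries. Of 30 members tested 6 passed, 2 in the positive direction and 4 in the negative; over all 19327 genes 16.5% passed, 7.12% positive and 9.41% negative. For Celsr1 the log2 fold change at E18.5 minus that at E12.5 was 1.24 ± 0.16, with an adjusted p of 0.00027, and it passed in each of the 25 alternatives run. Celsr1 was lower in dcKO at E12.5 and higher at E18.5, where tissue differed as well as age, and these cannot be told apart. The E12.5 call was lost with sex as a covariate and with male libraries alone. Cdh10 had -0.78 ± 0.18 (adjusted p of 0.0087), Cdh18 -1.30 ± 0.30 (0.010) and Cdh20 -0.86 ± 0.23 (0.019), all lower in dcKO at E18.5 and not at E12.5. At E12.5 Cdh18 was at 1.87, 2.27 and 1.82 CPM in dcKO, against 0.412, 1.43 and 1.01 CPM in ff, and Cdh20 at 5.25, 4.82 and 6.02 CPM in dcKO, against 3.09, 4.14 and 4.21 CPM in ff. Both are thus on the higher side in dcKO at E12.5, at log2 fold changes of 0.87 ± 0.32 and 0.45 ± 0.18, with neither passing there. Cdh24 had 0.44 ± 0.12 with an adjusted p of 0.024. That call was lost in 7 of 25 alternatives, 6 of them leaving out 1 library: ff replicate 2 or dcKO replicate 1, 2 or 3 at E12.5, or ff replicate 3 or dcKO replicate 4 at E18.5. For Dsc3 the value was -4.51 ± 0.58. Dsc3 is included in the interaction counts as a description, since its E18.5 value was known when the family was chosen. With male libraries alone Cdh10, Cdh18 and Cdh20 did not pass, at adjusted p of 0.058, 0.056 and 0.060, and the call of Cdh20 was also lost without dcKO replicate 3 of E12.5, at 0.069.

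Between E12.5 telencephalon and E18.5 cortex, age and tissue cannot be told apart. In dcKO, 18 of 30 members tested passed, 13 higher and 5 lower at E18.5, against 62.2% of all genes (30.9% higher and 31.3% lower). In ff 19 passed, 13 higher and 6 lower, against 61.4% of all genes (31.5% higher and 29.9% lower). Dsc3, among those higher in ff, is counted as a description. The groups did not overlap in TPM for 20 members in dcKO, against 60.9% of all genes, and for 18 in ff, against 55.8%. The medians over members were 0.39 in dcKO, also with Dsg1c at its bound, and 0.54 in ff, against 0.01 and 0 over all genes. Members that were higher at E18.5 in both genotypes included Cdh9, Cdh12, Cdh13, Cdh10, Cdh18 and Cdh8. Cdh9 rose most of these: it had 4.22, 3.96, 4.92 and 3.97 TPM at E18.5 and 0.58, 0.43 and 0.51 TPM at E12.5 in dcKO, a log2 fold change of 2.82 ± 0.15. In ff Cdh9 had 5.52, 5.29, 4.16 and 5.15 TPM at E18.5 and 0.53, 0.59 and 0.54 TPM at E12.5, a log2 fold change of 3.16 ± 0.16. For Cdh13 the log2 fold change was 2.32 ± 0.12 in dcKO and 2.36 ± 0.12 in ff, and for Cdh8 1.24 ± 0.11 and 1.39 ± 0.11. Cdh10 had 1.46 ± 0.13 in dcKO and 2.24 ± 0.14 in ff, and Cdh18 had 1.25 ± 0.21 and 2.55 ± 0.23. These calls passed with adjusted p of at most 8.5e-05 in edgeR.

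Celsr1 was lower at E18.5 in both genotypes. Its log2 fold change was -0.55 ± 0.11 in dcKO and -1.79 ± 0.11 in ff; Cdh22 had -0.54 ± 0.07 and -0.84 ± 0.08, and Cdh24 -0.43 ± 0.09 and -0.87 ± 0.09. Celsr3 was higher at E18.5, at 0.79 ± 0.11 in dcKO and 0.46 ± 0.11 in ff. Cdh2 had a log2 fold change of 0.01 ± 0.07 in both genotypes on counts. In TPM its dcKO libraries did not overlap, at 193 to 214 at E18.5 and 163 to 191 at E12.5. Those of ff did, at 177 to 228 and 184 to 210 TPM. Dsc3 in ff was at 1.12 to 2.42 TPM at E18.5 and 0 to 0.10 TPM at E12.5, with a log2 fold change of 4.75 ± 0.45; in dcKO that value was 0.24 ± 0.39. Dsg1c had 60.6 counts at E18.5 and 0 at E12.5 in dcKO. With 3 counts over the E12.5 group as a floor it was at least 19.1-fold higher. In ff it had 60.6 counts at E18.5 and 1 count at E12.5.

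**Figure D5:**
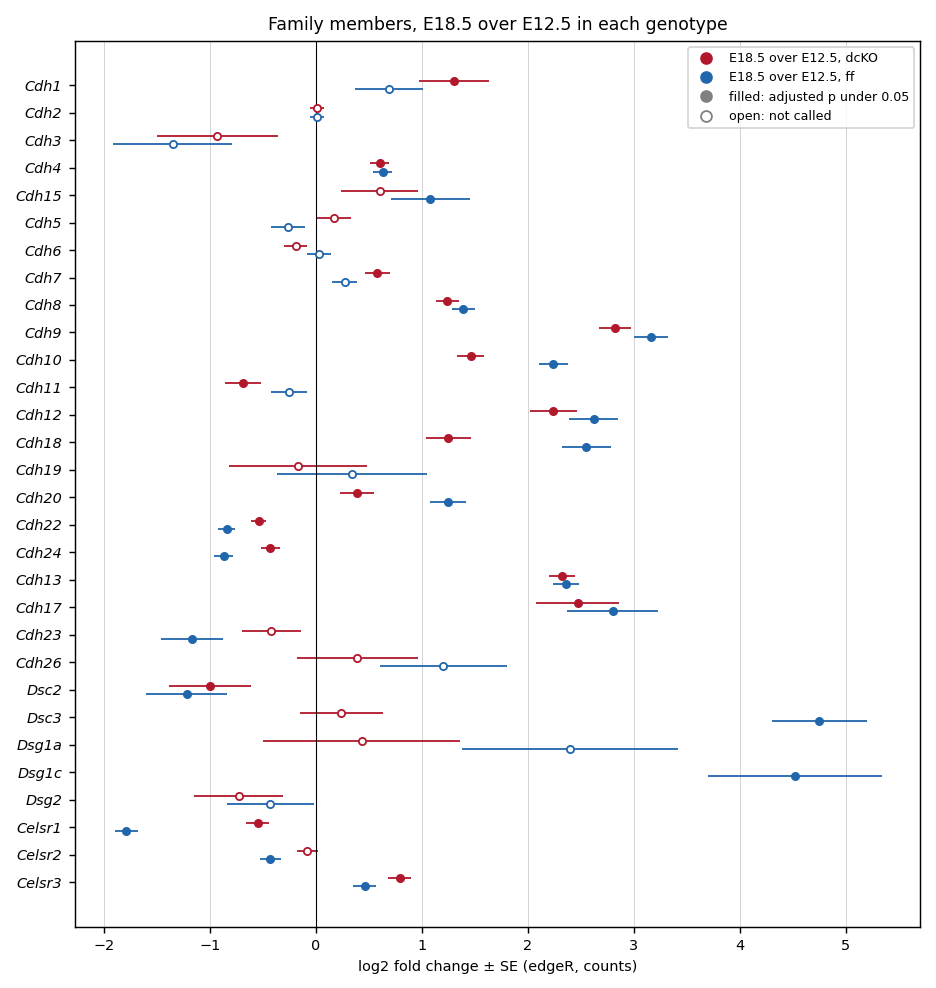
Log2 fold change of E18.5 over E12.5 ± SE from edgeR for each tested member, in dcKO (red) and ff (blue); filled points passed an adjusted p of 0.05. The dcKO value of Dsg1c is left out because its E12.5 libraries are all at 0; Cdh9, Cdh12 and Cdh13 are high in both genotypes, and Dsc3 is high in ff.

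Proteins that work with these adhesion molecules were counted in 6 lists, none of which had a member that passed at E12.5. At E18.5, of 15 catenins and adherens junction linkers 3 were higher and 4 lower in dcKO, with a median log2 fold change of -0.01. Over all genes tested at this stage 15.6% were higher and 16.6% lower, against which the counts of all 6 lists stand. Vcl (vinculin) had 0.59 ± 0.07 (adjusted p of 8.4e-05), Ctnna1 (alpha-E-catenin) 0.32 ± 0.06 (0.0026) and Ctnna2 (alpha-N-catenin, the neuronal form) -0.26 ± 0.05 (0.0037). Jup (plakoglobin, shared by adherens junctions and desmosomes) had -0.36 ± 0.06 (0.00053) and was the 1 of 6 tested desmosomal plaque genes that passed. Of 13 planar cell polarity partners of Celsr, 2 were higher and 3 lower, led by Prickle1 at -0.69 ± 0.07 (2.9e-05) and Prickle2 at -0.36 ± 0.07 (0.0015), with Dvl2 at 0.39 ± 0.08 (0.0026). Of 13 tested Fat, Dachsous and cadherin-related genes 1 was higher, Dchs2 at 0.90 ± 0.13 (0.00025), and 4 lower, among them Clstn2 at -0.59 ± 0.06 (3.6e-05) and Fat4 at -0.38 ± 0.09 (0.0085). Of 6 repressors of cadherin genes, Zeb1 was higher at 0.19 ± 0.06 (0.022) and Zeb2 lower at -0.48 ± 0.07 (0.00022). Of 7 sheddases, Adam17 was higher at 0.31 ± 0.06 (0.0025) and Adam10 lower at -0.17 ± 0.05 (0.020). The median log2 fold changes were -0.06 over the plaque genes, 0.04 over the polarity partners, -0.04 over the Fat and Dachsous group, 0.39 over the repressors and -0.01 over the sheddases, against 0.03 over all genes.

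Markers of cell types moved with genotype at E18.5 as well. All 5 pan-neuronal markers were lower, with summed levels of 3560 to 4090 TPM in dcKO and 5310 to 5480 TPM in ff. Of 8 deep-layer markers 6 were lower and 2 higher, with sums of 427 to 492 TPM in dcKO and 503 to 573 TPM in ff, and of 8 upper-layer markers 4 were lower and 1 higher, with 463 to 511 TPM in dcKO and 514 to 555 TPM in ff. All 8 interneuron and ventral markers were higher, with 1110 to 1240 TPM in dcKO and 663 to 763 TPM in ff. Of 10 radial glia markers 7 were higher and 1 lower, with 2380 to 2640 TPM in dcKO and 2200 to 2310 TPM in ff. Among 5 intermediate progenitor markers 3 were higher and 1 lower. Their sums overlapped, at 141 to 158 TPM in dcKO and 120 to 146 TPM in ff. Of 7 Cajal-Retzius markers 5 were higher and 1 lower, with sums of 175 to 217 TPM in dcKO and 136 to 172 TPM in ff. Of 5 microglia markers 3 were higher, with 87.0 to 105 TPM in dcKO and 60.5 to 74.4 TPM in ff, and of 6 thalamus and hypothalamus markers 3 were higher, with 29.0 to 40.4 TPM in dcKO and 18.1 to 24.4 TPM in ff. None of 4 erythroid markers passed, with sums of 347 to 1680 TPM in dcKO and 2120 to 3750 TPM in ff. Endothelial markers, beside Cdh5, had a median sum of 186 TPM in dcKO and 144 TPM in ff and overlapped, with 1 of 7 higher. Their part in the values of the cadherins and Celsr genes was not tested.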

How the data were processed

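Stranded poly(A) libraries were prepared with 1.0 ug of RNA as input, per the labels. The tools Trim Galore, STAR, RSEM and DESeq2 are listed in the submitters' processing notes. Their versions, the genome build and the counting strand are not given in the sources used here. Expected counts are gene-level RSEM estimates without normalization, as the authors deposited them, with 3.3% to 6.11% of values fractional. TPM come from RSEM too, as the authors deposited them. The authors' deposited table of their own DESeq2 comparison gives log2 fold changes and p-values, per the file headers, which do not mention shrinkage, and a mean signal per gene. At E12.5 the deposited log2 fold changes of Cdh18 and Cdh12 are 0.06 and -0.04, against 0.87 and -0.37 by edgeR. Deposited sizes are thus not like for like with those of edgeR.

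Counts were rounded and tested in R 4.3.3 with edgeR 4.0.16 (filterByExpr, TMM, robust quasi-likelihood F test). The SE given with a log2 fold change was derived from that test, as the size of the log2 fold change divided by the square root of F. Genotype was fitted within a stage, and the interaction and stage differences in 1 fit of 14 libraries. Two-sided p were adjusted over all genes tested by Benjamini-Hochberg, with a threshold of 0.05. TMM scaling within a stage also gave the CPM, per 1000000 counts. Alternatives used limma 3.58.1, DESeq2 1.42.0, other scalings and filters, a spline on transcript length, sex, log2(TPM + 1) and libraries left out in turn. The steps were tested on simulated data.

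Columns were assigned to groups by their names, where dfl was read as ff. Replicate numbers follow column order within a group and pair nothing. Floors cover counting error only. The members and lists were chosen with earlier results of these data known. Named genes are members that passed in a genotype comparison, the 6 with the highest mean TPM in ff at each stage, up to 4 per partner list with the lowest p, and Sbno1, Trp53 and Emx1. Others given with values were chosen after their values were seen. Promoter windows were the 250 bases before the start in a RefSeq table, which also gave gene neighbours, and exon overlaps came from GENCODE M21.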

Additional observations from a re-analysis of the deposited data

Results flagged for a closer look

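In 58 groups of 4 E18.5 libraries, 6 values of members stood far from the other 3 libraries of their group by Dixon's criterion, the gap to the nearest library as a share of the group's range. By its construction chance flags about 1 in 20 groups. In dcKO replicate 1, the shallow library, Cdh12 was at 4.62 CPM against 9.10 to 9.77 CPM in the other dcKO libraries, Cdh20 at 4.62 CPM against 7.52 to 7.82 CPM, and Cdh2 at 430 CPM against 392 to 397 CPM. In ff replicate 2, Celsr2 was at 202 CPM against 172 to 177 CPM in the other ff libraries, and Celsr3 at 207 CPM against 179 to 183 CPM. In ff replicate 3, Cdh26 was at 0.985 CPM against 0.276 to 0.356 CPM. Without dcKO replicate 1 the same 14 members passed at E18.5.

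The genotype effect differed between stages by the interaction test in 6 members, and tissue differed with stage. The log2 fold change of dcKO over ff at E18.5 minus that at E12.5 was 1.24 for Celsr1, 0.44 for Cdh24, -0.78 for Cdh10, -0.86 for Cdh20, -1.30 for Cdh18 and -4.51 for Dsc3, the last given as a description.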

How the results depend on the processing

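Of the members that passed at E12.5 the count was 1. It became 2 under the DESeq2 Wald test, 3 in 1 fit of all 14 libraries, and 0 with a mean of at least 1 CPM, with sex as a covariate, with male libraries alone and with limma on log2(TPM + 1), and lay between 0 and 2 with each library left out. Over all genes the DESeq2 Wald test called 1203 at E12.5, against 34 in edgeR. At E18.5 the count of 14 became 4 with a fold change of at least 1.5 as well, 9 with sex as a covariate and 6 with limma on log2(TPM + 1), (Cdh1, Cdh10, Cdh22, Cdh24 and Celsr1, with Dsc3 as a description), and lay between 10 and 15 with each library left out. For the interaction the count of 6 became 3 with male libraries alone and lay between 4 and 7 with each library left out. For the stage difference it lay between 16 and 19 in dcKO and between 18 and 23 in ff with each library left out. The cause of these changes was not tested, except that fewer libraries entered where libraries were left out.

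The sign changed for Cdh11 at E18.5 in TPM, to 0.00058 with a pseudocount of 1, 0.00057 with 0.5 and 0.00055 with 0.1 on the log2 scale. With the length correction the stage difference was -0.18 for Cdh2 and -0.24 for Cdh6 in ff, and -0.24 for Cdh2 in dcKO; the cause was not tested. Each called member result (58 in all) was paired with each alternative. Of these pairings, 1308 kept direction and, where the alternative had a test, side of the threshold. A further 99 lost the call, 3 moved with no test and 4 changed sign. The pseudocount alternatives in TPM had no test and were judged by direction and size alone. After the data were seen, leaving out both shallow libraries was added for the interaction and the stage differences. No paired analysis was possible because the numbers in the column names are not shared by the genotypes of a stage.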
